A study of Mus musculus with 221 samples.

Results

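The transcripts of 10 genes that write, read or remove repressive marks on chromatin were followed through 3 endothelial-to-hematopoietic transitions of the mouse embryo. They encode core subunits of Polycomb repressive complex 2 (Ezh1, Ezh2, Eed and Suz12), the DNA methyltransferases Dnmt1, Dnmt3a and Dnmt3b, the Dnmt1 partner Uhrf1, and the methylcytosine oxidases Tet2 and Tet3. The genes were chosen by their symbols, 10 of the 78317 genes and 100 of the 278369 transcripts in the deposited table, and 83 of the 100 transcripts had an estimated count above 0. Complementary DNA of single sorted cells, made by the Smart-seq2 protocol, had been sequenced as nanopore long reads. The untreated embryos came from crosses of C57BL/6JOlaHsd males with CD-1 females and carried the reporters GFI1-GFP and RUNX1B-RFP, which mark cells entering the blood programme. Hemogenic endothelium (HE), the endothelium from which blood cells emerge, had been sorted from the aorta-gonad-mesonephros region (AGM) of E9.5 and E10.5 embryos as RUNX1+, CDH5+, KIT-, CD41- and CD45- cells, and from the yolk sac (YS) at E9, E9.5 and E10.5 as RUNX1+, KIT+, CD31+, CD41- and CD45- cells, in both places with or without GFI1. HE AGM consisted of an early cluster c3 and a late cluster c4, HE YSA (YS arteries) of a1 and a2, and HE YSP (YS plexus) of b2 and b3. Cluster c5 (HE-Hb in the labels, which give mouse embryo as its tissue) held cells of the intra-aortic hematopoietic clusters, p1 YS progenitors skewed to lymphoid and myeloid fates, and p2 YS progenitors skewed to erythroid and myeloid fates. The clusters had been defined on short reads of the same cells, so the division into clusters is not independent of gene expression.

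Polycomb repressive complex 2 places methyl groups on a lysine of histone H3 and thereby marks genes as silent. Its catalytic subunit is either Ezh2, which prevails in dividing cells, or Ezh1, and neither works without Eed, which binds the mark already present, and Suz12, which holds the complex together. DNA methylation is set up by Dnmt3a and Dnmt3b and copied at replication by Dnmt1, which Uhrf1 brings to the hemimethylated DNA behind the fork, while Tet enzymes oxidise methylcytosine and start its removal. In adult blood stem cells Dnmt3a and Tet2 restrain self-renewal, and Ezh2 and Eed have roles in fetal and adult blood formation. The authors of the data cite earlier work on Ezh2 in the embryo. There it was needed for functional YS progenitors of erythroid and myeloid cells, but not for blood stem cells of the AGM.

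A limit on library size, 1 scaled median absolute deviation under the median total, left out 13 cells and kept 208, 49 from HE AGM, 52 from HE YSA and 49 from HE YSP, 21 of c5, 17 of p1 and 20 of p2. Totals of kept cells ranged from 18131 to 125339 estimated counts, with a median of 59311 for HE AGM, 34484 for HE YSA and 33297 for HE YSP. The cells are separate samples whose labels give no embryo, so a population counts as 1 sample: no difference below has a replicate check, a standard error or a test, and intervals are exact 95% intervals that cover counting error only. Levels are estimated counts summed over the cells of a group and scaled to a total of 1000000 (CPM), and the same level is given within each of 3 nanopore runs, which hold different cells. Reads of AGM and YS cells came from different cDNA projects except for 1 cell (a1 replicate 1), and 2 YS cells (a1 replicate 4 and a2 replicate 6) have AGM in their library names, so place, project and depth cannot be told apart. All 6 endothelial markers read (Cdh5, Pecam1, Kdr, Tek, Tie1 and Emcn) were detected in each HE population, with a summed level of 1523 CPM in HE AGM, 839 CPM in HE YSA and 932 CPM in HE YSP. Macrophage markers summed to 9.01, 11.5 and 71.2 CPM in the same order, and YS endoderm markers to at most 2.58 CPM in any cluster. Of the macrophage markers, C1qa and Cx3cr1 were at 0 in each HE population, and the sum of HE YSP came from Csf1r, Cd68 and Mrc1. It was 121 CPM in b2, with a median cell of 71.9 CPM, and 19.5 CPM in b3.

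Single short transcripts held most estimated counts of Dnmt3a and Ezh2 and many of those of Suz12, and 3 of them are shown here because the levels below turn on them. Their sequences are given 5′ to 3′ from the mouse annotation GENCODE M21 (build GRCm38), in which 98 of the 100 transcripts were found by identifier, all 98 with the length given in the deposited table. Dnmt3a-212, 555 bases in 3 exons, starts inside the gene, and the coding part of its own first exon is in capitals (chr12:3885584-3885655, plus strand), followed by bases of exons that other Dnmt3a transcripts share. Ezh2-213, 500 bases in 3 exons and annotated as a retained intron, begins with 51 bases of intron in capitals (chr6:47532066-47532116, minus strand) and goes on through the last coding exons to the stop codon. Suz12-203, also annotated as a retained intron, runs from a coding exon into the intron behind it, in capitals (chr11:79999126-79999185, plus strand).
Dnmt3a-212: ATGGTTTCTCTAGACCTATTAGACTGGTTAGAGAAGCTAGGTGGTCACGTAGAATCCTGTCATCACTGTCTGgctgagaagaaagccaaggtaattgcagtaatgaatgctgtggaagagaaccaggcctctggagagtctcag
Ezh2-213: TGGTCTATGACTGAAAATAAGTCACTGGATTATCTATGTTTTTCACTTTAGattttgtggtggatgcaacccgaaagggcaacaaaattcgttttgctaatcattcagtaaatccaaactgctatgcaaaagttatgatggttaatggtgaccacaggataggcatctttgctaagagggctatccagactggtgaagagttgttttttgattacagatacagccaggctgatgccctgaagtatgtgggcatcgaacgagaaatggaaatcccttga
Suz12-203: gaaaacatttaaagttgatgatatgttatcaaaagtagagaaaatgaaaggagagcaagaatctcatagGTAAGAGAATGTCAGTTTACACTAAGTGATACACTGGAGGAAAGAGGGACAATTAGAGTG

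Among the 10 genes, 4 were higher in HE AGM than in HE YSA by at least 2-fold in the summed level and with the same sign in each of the 3 runs (Ezh2, Dnmt1, Uhrf1 and Dnmt3b), and 0 were lower by this rule. Over all 9782 genes with at least 50 summed counts in the HE cells, a minimum that all 10 genes passed, 23.2% were higher and 11.1% lower by the same rule. Against HE YSP, 5 were higher in HE AGM (Ezh2, Dnmt1, Dnmt3a, Dnmt3b and Tet3) and 0 lower, where 25.9% of all genes were higher and 12.6% lower. Between the YS populations 0 genes were higher in HE YSP and 1 was lower (Dnmt3a), beside 6.17% and 7.02% of all genes. The median log2 ratio of the 10 genes was 1.00 for HE AGM over HE YSA, 1.09 for HE AGM over HE YSP and -0.09 for HE YSP over HE YSA, and that of all genes was 0.22, 0.29 and -0.01. Both comparisons with HE AGM share its cells. Of the genes higher than in HE YSP, Dnmt1 stayed past the rule in 11 and Tet3 in 10 of 17 alternative settings, where a run taken alone was held to 2-fold only.

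These ratios moved with transcript length. For HE AGM over HE YSA, the median log2 ratio of all genes was -0.24 where the transcripts detected were under 1000 bases on average, 0.66 from 2000 to 4000 bases, 1.20 from 4000 to 6000 bases and 1.40 above, and for HE AGM over HE YSP it ran from -0.23 to 1.41. Between HE YSP and HE YSA it stayed between -0.12 and 0.02. Mean lengths were 675.3 bases for Ezh2 and 997.4 for Dnmt3a, 1489.8 for Eed, 3121 to 3424 for Suz12, Ezh1 and Uhrf1, 4154 for Dnmt3b, 5458 for Dnmt1, 5721 for Tet2 and 10019.9 for Tet3. The part of length in any ratio below was not tested.

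**Figure D1:**
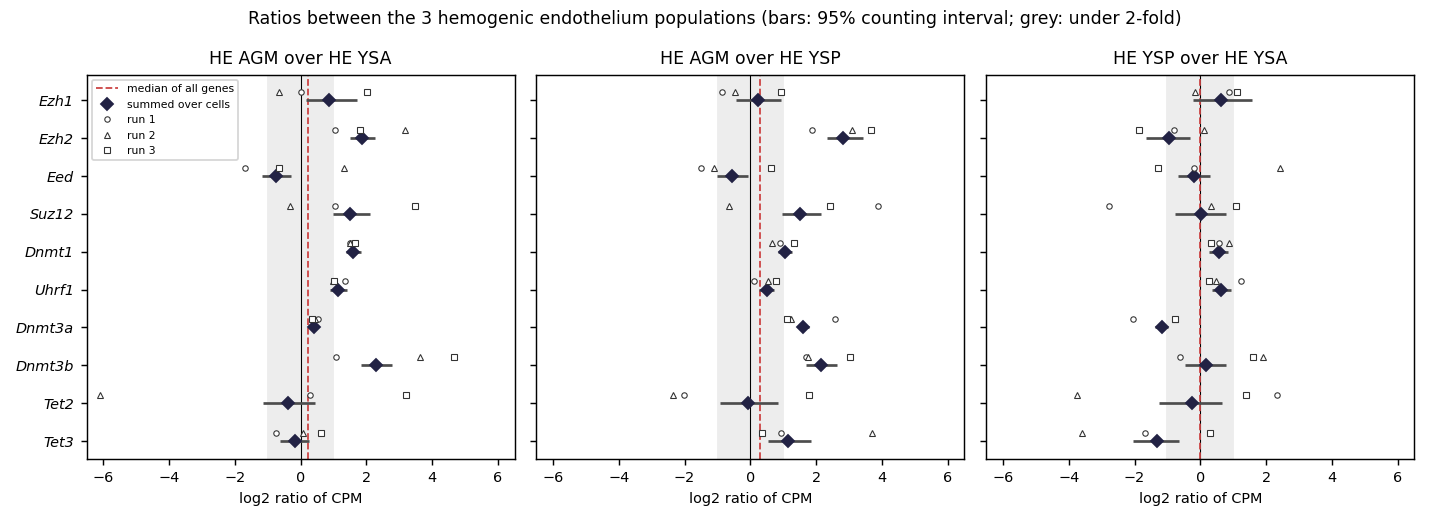
The log2 ratio of CPM is plotted for each of the 10 genes in 3 comparisons, with diamonds for counts summed over all cells, lines for the 95% counting interval, open symbols for single runs, and a red line at the median of all genes. Ezh2, Suz12, Dnmt1 and Dnmt3b lie right of the grey 2-fold band in both HE AGM comparisons, and Dnmt3a and Tet3 lie left of it in HE YSP over HE YSA. Of these, Suz12 in the HE AGM comparisons and Tet3 in HE YSP over HE YSA change sign between runs.

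Ezh2, the catalytic subunit of dividing cells (chr6:47530139-47595341, minus strand), was highest in the AGM when all its transcripts were summed. Its level was 156 CPM in c3, 90.6 CPM in c4 and 87.4 CPM in c5, then 46.4 CPM in p2, 36.6 CPM in a2, 33.3 CPM in a1, 24.4 CPM in b3, 19.8 CPM in p1 and 11.8 CPM in b2. The counting intervals of c3 (139 to 174 CPM) and c4 (75.5 to 108 CPM) did not overlap, nor did those of c5 (73.2 to 104 CPM) and p2 (32.1 to 64.9 CPM), while those of c4 and c5, and of each pair of neighbours after p2, did. The 3 runs ranged from 98.2 to 177 CPM in HE AGM, above the range of 18.7 to 46.5 CPM in HE YSA and of 9.19 to 26.3 CPM in HE YSP. In single cells of HE AGM the lowest, median and highest level were 0, 99.0 and 593 CPM, while the median cell of both YS populations had none. The log2 ratio was 1.86 (1.50 to 2.26) over HE YSA and 2.82 (2.31 to 3.43) over HE YSP, beside medians of -0.24 and -0.23 for genes of a mean length under 1000 bases. That mean is weighted by counts, and most Ezh2 counts of HE AGM were those of the 500-base Ezh2-213. The length class of Ezh2 is therefore not independent of its level, and these medians do not show the part of length.

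Most Ezh2 counts of HE AGM were assigned to the intron-headed transcript printed above. Only 51 of its 500 bases are in no other Ezh2 transcript of GENCODE M21. Reads over the shared bases are assigned by estimate, and how many reads covered the 51 bases was not examined. Ezh2-213 took 80.8% of the gene's counts in HE AGM (345.8 of 428.0), 28.4% in HE YSA (19 of 67 counts) and 35.0% in HE YSP. Within runs its share lay between 79.7% and 82.2% in HE AGM, between 23.4% and 33.3% in HE YSA, and between 0% and 50% in HE YSP, so the ranges did not overlap between the AGM and the YS. By cluster, its level was 127 CPM in c3, 71.2 CPM in c4 and 63.8 CPM in c5, and at most 12.5 CPM in any YS cluster. Without it the order of the clusters changed, to 41.0 CPM in p2, 28.6 CPM in a2, 28.4 CPM in c3, 23.6 CPM in c5, 20.8 CPM in a1 and 19.4 CPM in c4, with the rest between 8.23 and 18.3 CPM. All other Ezh2 transcripts together reached 24.7 CPM in HE AGM, 25.2 CPM in HE YSA and 11.7 CPM in HE YSP, a log2 ratio of -0.04 (-0.56 to 0.51) over HE YSA and of 1.05 (0.38 to 1.92) over HE YSP. Without Ezh2-213 the levels of HE AGM and HE YSA therefore differed by less than the counting error, whereas the log2 ratios of Ezh2-213 alone were 3.35 (2.72 to 4.13) and 3.98 (3.12 to 5.00). Ezh2-211, a transcript with no defined coding part, held 4.67% of the counts in HE AGM, against 23.9% in HE YSA and 30% in HE YSP. Ezh2-209, annotated as a target of nonsense-mediated decay, held 18.7% in HE YSA, 3.04% in HE AGM and 0% in HE YSP. Transcripts annotated as protein-coding, of which Ezh2-205 (866 bases) was the most abundant, held 8.68% of the Ezh2 counts of HE AGM, 16.4% of those of HE YSA and 31.7% of those of HE YSP. With coding transcripts alone the log2 ratio of HE AGM was 0.76 over HE YSA and 0.79 over HE YSP, short of 2-fold in both. None of the 476 words of 25 bases in Ezh2-213 occurs in a transcript of another gene in GENCODE M21.

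Ezh1, the other catalytic subunit (chr11:101191115-101226463, minus strand), had few counts, 127.5 in 33 of the 208 cells. Its level was 22.7 CPM in c3, 20.1 CPM in b3, 15.1 CPM in c4, 12.9 CPM in b2, 11.3 CPM in a2 and 9.52 CPM in a1, and 4.57 to 5.46 CPM in c5, p1 and p2, the 3 clusters beyond HE. The intervals of neighbours in this order overlapped throughout. For c5 over c4 the log2 ratio was -1.46 (-2.90 to -0.28), on 8 and 21 counts, and below 0 in each run. For p2 over b3 it was -1.75 (-3.95 to -0.31), on 4 and 16.5 counts, with p2 at 0 in runs 1 and 2 and a ratio of -0.05 in run 3. The full-length coding transcripts Ezh1-202 and Ezh1-203 had equal counts in 27 of 27 cells, 41.5% of the gene's counts each in HE AGM, against 30% in HE YSA and 38.2% in HE YSP, so the estimates do not separate them. The short Ezh1-204 and Ezh1-209, which have no defined coding part, held 3.08% and 13.8% in HE AGM.

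Eed, the subunit that binds the existing mark (chr7:89954654-89980983, minus strand), was not highest in the AGM. Its level was 92.8 CPM in p2, 70.1 CPM in p1 and 69.0 CPM in a1, then 40.2 CPM in b3, 40.0 CPM in b2, 33.2 CPM in c4, 30.5 CPM in c5, 27.2 CPM in a2 and 23.2 CPM in c3. The intervals of all neighbours in this order overlapped, while that of p2 (72.1 to 118 CPM) lay above that of b3 (27.7 to 56.5 CPM). The step into progenitors went with a higher level in both YS routes, with log2 ratios of 1.35 (0.66 to 2.09) for p1 over a2 and 1.20 (0.59 to 1.85; runs 0.36 to 1.98) for p2 over b3, but not in the AGM, where c5 over c4 was -0.12 (-0.74 to 0.50). Both p1 and a2 were at 0 in run 2, and p1 was higher than a2 in the other runs (1.22 and 1.40). In this route a2 was itself below a1, with a log2 ratio of -1.33 (-2.04 to -0.67; runs -3.28 to -1.15). The interval of p1 (51.3 to 93.5 CPM) overlapped that of a1 (52.4 to 89.2 CPM), so p1 was not above the early arterial cluster. In p2 14 of 20 cells had at least 1 count, with a median cell of 94.7 CPM and a highest of 245 CPM. HE AGM was at 27.4 CPM, HE YSA at 45.7 CPM and HE YSP at 40.1 CPM, but the sign of HE AGM over HE YSA differed between runs, from -1.69 to 1.31. The leading transcript Eed-211, which is not in GENCODE M21, took 57.1% of the counts in HE AGM, against 85.1% in HE YSA and 70.1% in HE YSP, and every run of HE AGM was below every run of HE YSA, with 64.7% against 73.8% at the closest. The longer coding transcripts Eed-201 and Eed-212 had equal counts in 21 of 21 cells and held 9.88% each in HE AGM.

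Suz12, the scaffold of the complex (chr11:79993106-80034123, plus strand), was at 56.0 CPM in c3, 53.0 CPM in c5 and 41.0 CPM in c4, and between 6.83 and 22.3 CPM in the 6 YS clusters, with overlapping intervals between all neighbours in the order of levels. HE AGM reached 49.7 CPM against 17.3 CPM in both HE YSA and HE YSP, a log2 ratio of 1.50 in both comparisons, with the sign turned in run 2 (-0.32 and -0.66). In HE YSP the counts came from few cells: 6 of 49 cells had a count, and 1 of them reached 501 CPM. The intron-containing Suz12-203 printed above took 75.9% of the counts in HE YSP (22 of 29 counts), 39.4% in HE YSA and 23.6% in HE AGM, and 94.7% in b2. The 19 Suz12 counts of b2 all lay in run 2. Of its 25 cells 3 had a count, and 1 of these was the cell of 501 CPM. The shares of b2 and HE YSP therefore rest on few cells. The long coding transcripts Suz12-201 and Suz12-206 held 34.8% and 38.3% in HE AGM, 18.2% each in HE YSA and 12.1% each in HE YSP, and Suz12-204, a decay target, held 15.2% in HE YSA. Without Suz12-203, the gene was at 38.0 CPM in HE AGM and 4.19 CPM in HE YSP, and the log2 ratios became 1.83 (1.17 to 2.62) and 3.09 (2.10 to 4.53), with the same sign in all 3 runs. The median of all genes of this length was 0.66 and 0.78 in these comparisons.

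**Figure D2:**
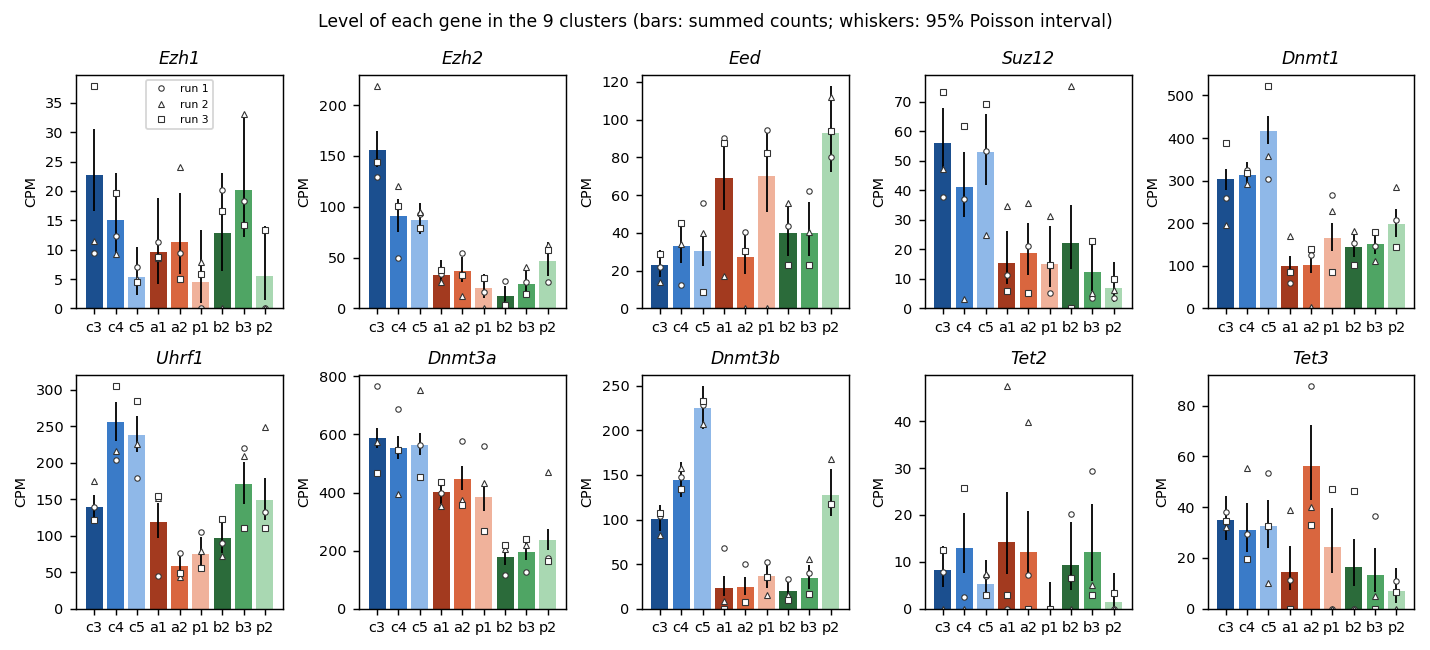
The level of each gene in CPM is plotted by cluster, with bars for summed counts, whiskers for the 95% Poisson interval and open symbols for the 3 runs (blue AGM, red YS arterial route, green YS plexus route). Dnmt3b stands at 225 CPM in c5 and 128 CPM in p2, above the HE clusters that precede them, and Eed at 92.8 CPM in p2.

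The maintenance pair Dnmt1 and Uhrf1 was higher in the AGM than in the YS arteries. Dnmt1 (chr9:20907209-20959888, minus strand) was at 417 CPM in c5, 314 CPM in c4 and 303 CPM in c3, then 199 CPM in p2, 166 CPM in p1, 152 CPM in b3, 145 CPM in b2, 102 CPM in a2 and 99.9 CPM in a1. Of the neighbours in this order, c5 and c4 had intervals that did not overlap, and neither did c3 and p2, while the rest overlapped. Levels within runs were 238 to 358 CPM in HE AGM, 144 to 152 CPM in HE YSP and 83.0 to 114 CPM in HE YSA, so the 3 populations did not overlap. A count was present in 44 of 49 cells of HE AGM, 34 of 49 of HE YSP and 23 of 52 of HE YSA, and with each cell thinned to the same total these shares would be 84.4%, 65.9% and 41.7%. The log2 ratio of HE AGM was 1.60 (1.38 to 1.83; runs 1.49 to 1.64) over HE YSA and 1.05 (0.85 to 1.26; runs 0.64 to 1.31) over HE YSP, beside medians of 1.20 and 1.29 for all genes with transcripts of 4000 to 6000 bases. In that length class 47.3% and 50.5% of genes were higher in HE AGM by the 2-fold rule.

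Dnmt1-201, Dnmt1-202 and Dnmt1-203, which start at different places, had equal counts in 152 of 152 cells, so the deposited estimates do not separate them (28.5% each in HE AGM, against 23.7% in HE YSA and 24.2% in HE YSP). Of the 5543 bases of Dnmt1-207, 0 are in no other Dnmt1 transcript of GENCODE M21, so its counts rest on the division of shared reads by estimate. Dnmt1-207 took 13.3% of the counts in HE AGM, against 28.5% in HE YSA and 26.6% in HE YSP. Against HE YSA it differed by -15.2 percentage points (runs -3.28, -5.28 and -26.9), and against HE YSP by -13.3 points (runs -15.9, -1.90 and -14.7). Its own level was 40.8 CPM in HE AGM, 28.9 CPM in HE YSA and 39.5 CPM in HE YSP.

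Uhrf1 (chr17:56303321-56323486, plus strand) was at 255 CPM in c4, 238 CPM in c5, 171 CPM in b3, 149 CPM in p2, 139 CPM in c3, 119 CPM in a1, 96.4 CPM in b2, 74.6 CPM in p1 and 58.2 CPM in a2. Only c5 and b3 were neighbours without overlapping intervals. Unlike Dnmt1, it was higher in late than in early HE of the AGM, with a log2 ratio of 0.88 for c4 over c3 (0.64 to 1.11; runs 0.31 to 1.34), where Dnmt1 had 0.05 (-0.13 to 0.23). HE AGM was at 187 CPM (runs 164 to 200.3), HE YSP at 133 CPM (runs 116 to 152) and HE YSA at 85 CPM (runs 64.0 to 97.8), again without overlap. The log2 ratio was 1.13 over HE YSA (0.89 to 1.40), past 2-fold, and 0.49 over HE YSP (0.27 to 0.72), short of it. Both calls depended on the cells compared. Over HE YSA the ratio was 0.22 between the early clusters, no longer past 2-fold, and 2.12 between the late ones. Over HE YSP it was 1.13, past 2-fold in the sum and above 0 in each run, with YS cells of E10.5 only. Of the 25-base words of Uhrf1-201, 34.0% also occur in transcripts of 52 other genes. Uhrf1-201 and Uhrf1-203 had equal counts in 154 of 154 cells, and Uhrf1-201 to Uhrf1-204 held 24.5% to 25% each in HE AGM. In HE YSA the shares were 32.2% for Uhrf1-201 and Uhrf1-203, 14.6% for Uhrf1-202 and 18.5% for Uhrf1-204.

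Replication genes are set beside these levels. The 18 genes read for replication and division summed to 3116 CPM in HE AGM (runs 2942 to 3281), 2644 CPM in HE YSP (runs 2326 to 2976) and 2114 CPM in HE YSA (runs 2011 to 2235). This is the order of Dnmt1 and Uhrf1, with overlapping runs of HE AGM and HE YSP. By the 2-fold rule 4 of the 18 were higher in HE AGM in each comparison, beside 23.2% and 25.9% of all genes. Mki67, a marker of cycling cells, was at 71.8, 5.98 and 1.05 CPM in the same order, and the topoisomerase Top2a at 374, 107 and 50.6 CPM, the largest ratios of the list over both YS populations. The log2 ratio over HE YSP was below 0 for Tyms (-0.55), Gmnn (-0.26), Mcm6 (-0.18), Mcm5 (-0.17) and Mcm7 (-0.06). Among single clusters the order was not the same: p2 had the highest sum (3412 CPM) with 199 CPM of Dnmt1, and c3 had 3011 CPM with 303 CPM of Dnmt1. The part of cell division in the levels of Dnmt1, Uhrf1 and Ezh2 was not tested.

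Dnmt3a, a methyltransferase that acts on unmethylated DNA (chr12:3806007-3914443, plus strand), was the 1 gene of the 10 past the 2-fold rule between the YS populations. Tet3 had a larger log2 ratio there (-1.32) but missed the rule, with its sign turned in run 3. The YS populations differ in stage (35 of 52 cells of HE YSA and 20 of 49 of HE YSP were of E10.5). Dnmt3a was at 589 CPM in c3, 565 CPM in c5, 553 CPM in c4, 448 CPM in a2, 402 CPM in a1 and 384 CPM in p1, then 237 CPM in p2, 197 CPM in b3 and 179 CPM in b2. The order has 2 gaps, between c4 and a2 and between p1 and p2, where the counting intervals did not overlap. HE AGM was at 574 CPM (runs 498 to 737), HE YSA at 428 CPM (runs 364 to 508) and HE YSP at 188 CPM (runs 123 to 229.8). The run ranges of HE AGM and HE YSA overlapped and the log2 ratio was 0.42 (0.30 to 0.54; runs 0.34 to 0.54), whereas the run range of HE YSP lay below both, with -1.18 against HE YSA (-1.37 to -0.99; runs -2.04 to -0.78) and 1.61 for HE AGM over HE YSP (1.43 to 1.78; runs 1.12 to 2.58). A count was found in 47 of 49 cells of HE AGM, 46 of 52 of HE YSA and 29 of 49 of HE YSP, and the median cell had 531, 252 and 70.4 CPM.

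Of the 555 bases of Dnmt3a-212, 207 are in no other Dnmt3a transcript of GENCODE M21, and reads over the shared bases are assigned by estimate. The short Dnmt3a-212, with its own start and first exon, held most estimated Dnmt3a counts in every cluster, from 53.1% in b2 to 86.6% in c4. Its share was 84.7% in HE AGM (1618 of 1910.5 counts), against 66.0% in HE YSA and 65.8% in HE YSP, and the transcript Dnmt3a-205, which ends before Dnmt3a-212 starts, held 3.30%, 20.9% and 21.9%. The difference of Dnmt3a-212 was 18.7 percentage points from HE YSA (runs 11.4, 16.3 and 29.4) and 18.9 points from HE YSP (runs 35.6, 14.2 and 11.8). With Dnmt3a-212 left out, the other transcripts were at 87.8 CPM in HE AGM, 145 CPM in HE YSA and 64.3 CPM in HE YSP, so HE AGM was lower than HE YSA (log2 ratio -0.73, -0.97 to -0.49) and less far above HE YSP (0.45, 0.12 to 0.77), each with the same sign in 3 runs. The lower level of HE YSP than of HE YSA was as large without it (-1.17) as in it alone (-1.19). None of the 183 words of 25 bases in its own first exon, and 20 of the 324 in its shared exons, occur in a transcript of another gene, in each case the pseudogene Dnmt3a-ps1.

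In 3 of the 10 genes (Dnmt1, Uhrf1 and Dnmt3a) each population had at least 20 counts in each run, the minimum set for shares. By the rule of a difference over 10 points with the same sign in 3 runs, Dnmt1 and Dnmt3a had such a transcript in both comparisons with HE AGM, and 0 genes had one between the YS populations. Of all genes that reached the minimum, 47.0% of 1966 had one for HE AGM against HE YSA, 45.8% of 1869 for HE AGM against HE YSP and 9.84% of 1708 for HE YSP against HE YSA. The shares of Ezh2, Eed and Suz12 rest on fewer counts and are given as values alone.

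**Figure D3:**
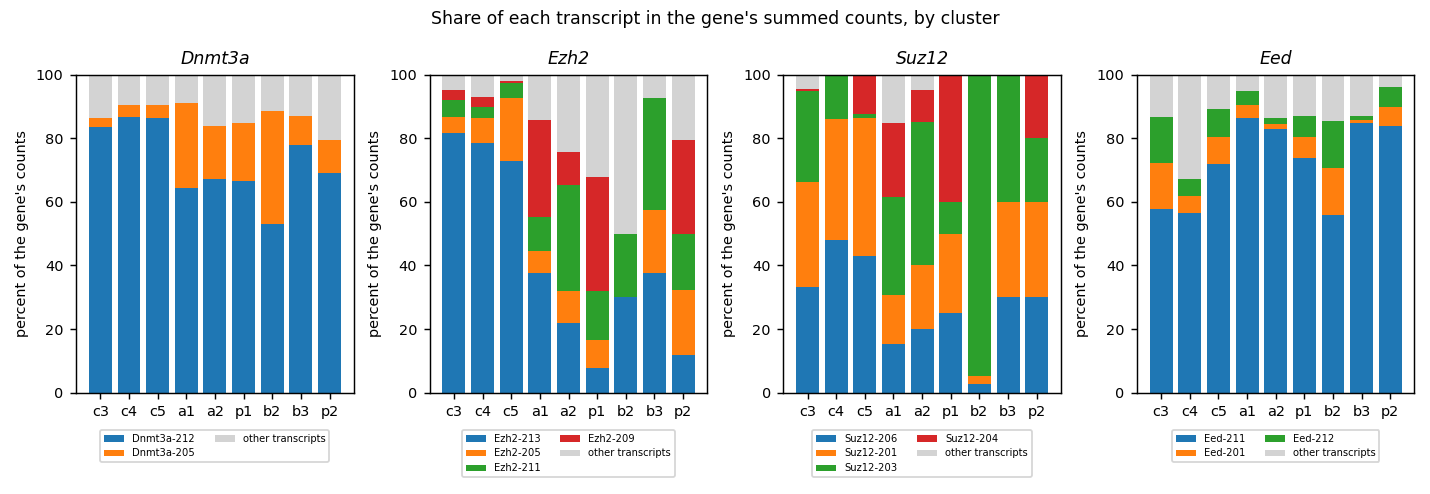
The percent of a gene's summed counts held by each transcript is stacked by cluster for Dnmt3a, Ezh2, Suz12 and Eed, with transcripts under 5% over all cells in grey. Ezh2-213 fills 73.0% to 81.7% of the bar in c3, c4 and c5 and at most 37.5% in any YS cluster.

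Dnmt3b, the methyltransferase best known from the early embryo (chr2:153649450-153687730, plus strand), had the largest ratio between HE AGM and HE YSA of the 10 genes. Its level was 225 CPM in c5, 144 CPM in c4, 128 CPM in p2 and 101 CPM in c3, then 36.6 CPM in p1, 34.1 CPM in b3, 24.4 CPM in a2, 23.8 CPM in a1 and 20 CPM in b2. The intervals of c5 and c4 did not overlap, nor did those of c3 and p1, and all other neighbours overlapped. Within the AGM it was higher in each later cluster, with log2 ratios of 0.52 for c4 over c3 (0.22 to 0.81; runs 0.33 to 0.92) and 0.64 for c5 over c4 (0.39 to 0.90; runs 0.39 to 0.79). In the plexus route the log2 ratio of p2 over b3 was 1.89 (1.29 to 2.58; runs 1.50 to 2.69), and in the arterial route that of p1 over a2 was 0.58 (-0.28 to 1.44), an interval that includes 0. These routes differ in stage. The p2 cells were 5 of E9, 9 of E9.5 and 6 of E10.5, and the p1 cells 2 of E9.5 and 15 of E10.5. Dnmt3b was at 175 CPM at E9.5 and 55.1 CPM at E10.5 in p2, and at 119.7 and 21.6 CPM in p1. Route and stage cannot be told apart in these steps. All 21 cells of c5 had a count, from 57.6 to 369 CPM, and 15 of 20 cells of p2, against 6 of 29 in a2.

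HE AGM held 119 CPM of Dnmt3b in a narrow run range of 115 to 121 CPM, HE YSA 24.1 CPM (runs 4.08 to 56.7) and HE YSP 26.9 CPM (runs 13.8 to 36.8). The log2 ratio was 2.28 (1.85 to 2.77) over HE YSA and 2.13 (1.69 to 2.62) over HE YSP, beside the length-class medians of 1.20 and 1.29 given for Dnmt1. With transcript estimates under 1 count set to 0, the ratios became 6.77 and 2.88, and that of HE YSP over HE YSA 3.89 in place of 0.16. This setting acts on each transcript, and Dnmt3b counts are divided over many transcripts that the estimates do not separate. A cell with few counts of the gene can therefore fall to 0, and these ratios do not show that Dnmt3b was absent. With cells thinned to the same total, a count would be found in 75.7% of the cells of HE AGM, 19.3% of those of HE YSA and 20.3% of those of HE YSP (85.7%, 23.1% and 22.4% unthinned). The coding transcripts of Dnmt3b could not be told apart: Dnmt3b-202, Dnmt3b-203, Dnmt3b-209 and Dnmt3b-210 had equal counts in 107 of 107 cells, and Dnmt3b-204, Dnmt3b-205, Dnmt3b-206 and Dnmt3b-208 held 8.82% to 8.89% each in HE AGM. Dnmt3b-201 held 19.7% in HE AGM, against 10.6% in HE YSA and 17.5% in HE YSP, and Dnmt3b-207 held 4.30%, 2.17% and 13.3%. Of the 25-base words in its transcripts, 13.6% to 20.9% also occur in Dnmt3c or Lair1.

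Tet3, which oxidises methylcytosine (chr6:83362373-83459084, minus strand), was found in 53 of the 208 cells. It was at 56.3 CPM in a2, 35.1 CPM in c3, 32.5 CPM in c5, 30.9 CPM in c4, 24.4 CPM in p1, 16.5 CPM in b2, 14.3 CPM in a1, 13.4 CPM in b3 and 6.83 CPM in p2, with overlapping intervals between all neighbours. Between the arterial clusters the log2 ratio of a2 over a1 was 1.93 (1.07 to 3.01; runs 0.03 to 4.56). HE AGM and HE YSA were at 33.3 and 37.8 CPM, HE YSP at 15 CPM. The log2 ratio of HE AGM over HE YSP was 1.13 (0.52 to 1.85; runs 0.35 to 3.68), below the median of 1.41 for all genes with transcripts over 6000 bases, and that of HE YSP over HE YSA was -1.32 (-2.06 to -0.66) with the sign turned in run 3 (0.28). The long Tet3-202 held 100% of the counts in HE AGM, against 61.1% in HE YSA and 96.0% in HE YSP, and the short Tet3-204 held 22.2% in HE YSA, with all its counts there in run 1.

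Tet2, an enzyme of the same kind (chr3:133463679-133545139, minus strand), had 86.00 counts in 22 of the 208 cells. It was at 10.2 CPM in HE AGM, 13.1 CPM in HE YSA and 10.8 CPM in HE YSP, and its ratios turned sign between runs in all 3 comparisons, so no difference was detectable at this depth. In p1 it had 0 counts in 17 cells, which allows a level of up to 4.57 CPM (3 counts of the total), and in p2 1.000 count. Transcripts annotated as retained introns held 55.9% to 68% of the Tet2 counts in the HE populations. These were Tet2-209, equal in its counts to the coding Tet2-201 (32.4% each in HE AGM), Tet2-203 with 20.6% in HE AGM, Tet2-206 with 44.4% in HE YSP and Tet2-210 with 48.0% in HE YSA. The coding Tet2-204 held 11.1% to 12%.

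Within the YS, stage went with the level of Dnmt3a and Uhrf1 in opposite directions, a comparison that was chosen after the data were seen. Dnmt3a in HE YSA was at 559 CPM at E10.5 (35 cells) and 116 CPM at E9.5 (14 cells), a log2 ratio of 2.26 (1.88 to 2.69; runs 1.74 to 2.87). In HE YSP it was at 263 CPM at E10.5 (20 cells) and 93.5 CPM at E9.5 (13 cells), a log2 ratio of 1.48 (0.98 to 2.05; runs 0.23 to 2.45). The median cell of HE YSA had 459.6 CPM at E10.5 and 63.7 CPM at E9.5, and that of HE YSP 107 and 62.0 CPM. At E9, 16 cells of HE YSP gave 130.1 CPM. The intervals of HE YSA (87.4 to 150.3 CPM) and HE YSP (65.5 to 129 CPM) overlapped at E9.5, while those at E10.5 did not (519.6 to 600.0 and 230.2 to 301 CPM). Dnmt3a-212 itself was at 379.6 and 49.6 CPM in HE YSA and at 181 and 49.4 CPM in HE YSP.

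Uhrf1 was lower at E10.5, with 62.2 against 161 CPM in HE YSA (log2 ratio -1.38, -1.84 to -0.91; runs -2.57 to -0.78) and 85.2 against 242 CPM in HE YSP (-1.50, -1.97 to -1.04; runs -1.92 to -0.86). The 16 HE YSP cells of E9 had 128 CPM of Uhrf1 (97.1 to 165), below E9.5 (195 to 296) and with an interval that overlapped that of E10.5 (66.5 to 107). The level was thus not in the order of stage. At E9.5 13 of 14 cells of HE YSA and 13 of 13 of HE YSP had a count, and at E10.5 14 of 35 and 12 of 20. By the 2-fold rule with the same sign in 3 runs, Dnmt3a was the 1 gene of the 10 higher at E10.5 in HE YSA, where 8.32% of all genes were, and Ezh1, Uhrf1 and Tet2 were lower, where 7.19% were. The sign of Tet2 in run 3 came from the 0.5 counts added to each side (1 count at E10.5 and 0 at E9.5). With signs taken without added counts, Tet2 was not called and 3.89% of all genes were lower. In HE YSP Dnmt3a and Tet2 were higher, Tet2 on 10 counts at E10.5 and 0 at E9.5, beside 8.50% of all genes, and Ezh2, Uhrf1 and Tet3 were lower, beside 12.8%, or 5.85% without added counts. Dnmt1 was not past 2-fold in either population (-0.65 and -0.37).

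Stage nearly coincided with the cell plate. Of the HE YS cells, plates WN-S6-2 and WN-S7-1 gave 11 and 14 cells of E9.5 and 0 of E10.5, WN-S6-1, WN-S6-4 and WN-S8-1 gave 12, 31 and 2 of E10.5 and 0 of E9.5, and WN-S6-3 gave 2 and 10. Within WN-S6-3 Dnmt3a was at 315 CPM in 6 cells of E10.5 and 547 CPM in the 1 cell of E9.5 of HE YSA, and at 68.8 CPM in 4 cells and 0 in 1 cell of HE YSP, too few cells to separate stage from plate. In HE YSP stage also went with cluster. Its E9.5 cells were 2 of b2 and 11 of b3, and its E10.5 cells 13 of b2 and 7 of b3. Uhrf1 was at 96.4 CPM in b2 and 171 CPM in b3, and Dnmt3a at 179 and 197 CPM. In HE YSA the E9.5 cells were 7 of a1 and 7 of a2, and the E10.5 cells 14 and 21. The part of cluster in the stage ratios was not tested. The median total of HE YSA cells was 35445 at E10.5 and 27909.5 at E9.5. Stage is given for 1 cell of HE AGM, so the populations could not be matched by stage. With only E10.5 cells of the YS, HE YSA (559 CPM) and HE AGM (574 CPM) had nearly the same Dnmt3a level, and HE YSP (263 CPM) stayed below both.

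**Figure D4:**
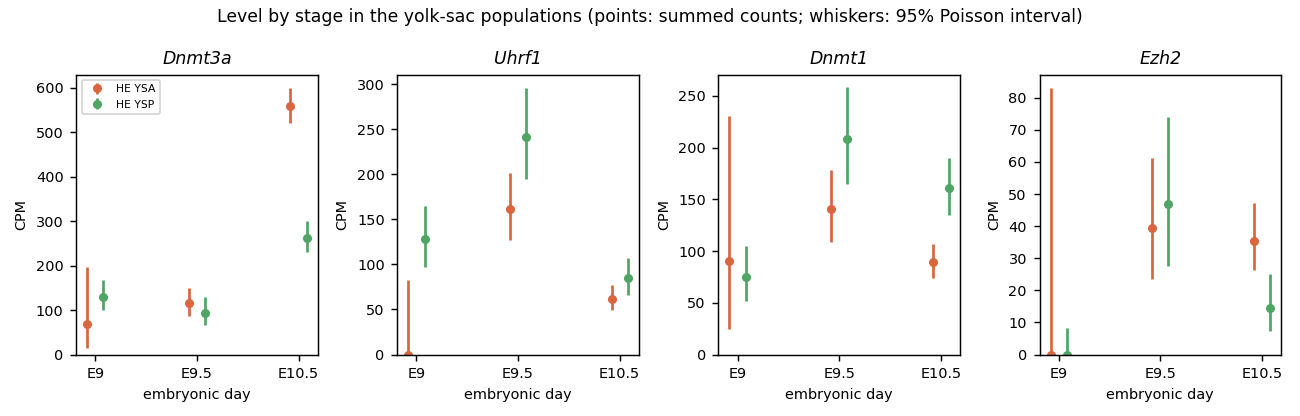
The level of Dnmt3a, Uhrf1, Dnmt1 and Ezh2 in CPM is plotted against embryonic day in HE YSA and HE YSP, with points for summed counts and whiskers for the 95% Poisson interval. Dnmt3a stands at 559 and 263 CPM at E10.5 and at 116 and 93.5 CPM at E9.5, while Uhrf1 stands lower at E10.5 than at E9.5 in both.

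The promoters of 4 of the 10 genes held a match to the E2F consensus, the site of the factors that switch on genes for replication. Of 32851 RefSeq promoter windows, each running from 250 bases before to 50 after a gene's start (build GRCm38.p6), 744 (2.26%) held TTTCCCGC, TTTCGCGC, TTTGCCGC or TTTGGCGC on either strand. Ezh2, Dnmt1, Suz12 and Uhrf1 each had such a window, 4 of the 15 windows of the 10 genes, and each match is shown with the bases beside it, the motif or its reverse complement in capitals. A match describes the letters and not a bound site.
Ezh2, chr6:47595010-47595037: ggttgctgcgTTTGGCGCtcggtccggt
Dnmt1, chr9:20952574-20952600: cggggcagcgTTTGGCGCgggctgtgc
Dnmt1, chr9:20952825-20952852: gtttccgcgcGCGCGAAAaagccggggt
Suz12, chr11:79992877-79992904: gacccctcatTTTCCCGCgaattcagtt
Uhrf1, chr17:56304118-56304145: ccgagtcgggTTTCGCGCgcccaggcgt
Each is written along the gene's own strand, and the third, in Dnmt1, matches on the opposite strand.

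Partners and opponents of these enzymes were read from lists beside them. Of the partners of Polycomb repressive complex 2, 6 of 11 passed the minimum of 50 counts, and 3 were higher in HE AGM over HE YSA and 3 over HE YSP, with 0 lower. The shares of all genes, for this and the lists that follow, were 23.2% higher and 11.1% lower over HE YSA and 25.9% and 12.6% over HE YSP. Aebp2, a stimulating partner, was at 43.3 CPM in HE AGM, 8.40 CPM in HE YSA and 15 CPM in HE YSP. Jarid2, which guides the complex to its targets, was at 75.1, 34.1 and 34.1 CPM, and Epop at 12.3, 4.20 and 3.59 CPM. Of Polycomb repressive complex 1, which ubiquitinates histone H2A and reads the mark of complex 2, 16 of 23 genes passed, 9 higher in HE AGM and 1 lower over HE YSA, and 9 higher and 0 lower over HE YSP. Its median log2 ratios were 1.13 and 1.29, beside 0.22 and 0.29 for all genes. Among all genes these medians were 0.66 and 0.78 from 2000 to 4000 bases, and 1.20 and 1.29 from 4000 to 6000 bases. Transcript lengths of the listed genes were not compared, so the part of length in these list values was not tested. The 1 lower gene of complex 1 was Rnf2, the catalytic subunit, at 11.7 CPM in HE AGM and 38.3 CPM in HE YSA. The reader Cbx6 had log2 ratios of 2.07 and 1.46, the corepressor Bcor of 1.71 and 2.48, and E2f6 of 1.48 and 1.92. Pcgf6 (25.5, 13.1 and 3.59 CPM) and Cbx2 (12.6, 8.92 and 1.79 CPM) were past 2-fold only over HE YSP, and Phc2 (59.5, 15.7 and 38.3 CPM) only over HE YSA, though the difference between these comparisons was not tested.

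Among 6 measured opponents, 2 were higher and 1 lower in HE AGM in each comparison. The shares of all genes are those given above. Kdm6b, which removes the histone mark, was at 44.8 CPM in HE AGM, 30.4 CPM in HE YSA and 8.97 CPM in HE YSP. By the 2-fold rule it was the 1 opponent lower in HE YSP than in HE YSA (log2 ratio -1.73, -2.69 to -0.92), where 7.02% of all genes were lower. Usp16, which removes ubiquitin from H2A, was past 2-fold over HE YSA (65.8 against 28.3 CPM), and Kdm6b over HE YSP. Asxl1, a partner of the enzyme that removes the H2A mark, had log2 ratios of 1.97 and 2.67, and the H2A deubiquitinase Mysm1 was lower in HE AGM (1.80 CPM against 17.3 and 9.57 CPM; log2 ratios -3.17 and -2.34). Of 14 measured genes around DNA methylation, 4 were higher and 1 lower in each HE AGM comparison. Of all genes 23.2% and 25.9% were higher and 11.1% and 12.6% lower. Mbd1, a reader of methylated DNA, was at 21.6, 4.20 and 7.18 CPM, and Zbtb33, another, at 13.5, 6.30 and 2.99 CPM. The reader Mbd2 (60.4, 16.8 and 22.7 CPM) and the corepressor Trim28 (444, 202 and 199 CPM) were the others higher in both comparisons, with Mbd1 over HE YSA alone and the oxidase Tet1 (26.1 against 7.18 CPM) over HE YSP alone. The log2 ratio of Mbd1 over HE YSP was 1.54, but it was -0.27 within run 2, so it missed the rule that all runs share a direction. The lower gene of this list was Ahcy, which clears the product that inhibits methyltransferases, at 3.30, 11.3 and 16.7 CPM. Of the 18 replication genes, 4 were higher in HE AGM in each comparison and 0 lower, also near the 23.2% and 25.9% of all genes. Besides Mki67 and Top2a these were Mcm4 in both comparisons (34.5, 12.1 and 10.8 CPM), Birc5 over HE YSA (123 against 38.3 CPM) and Rrm1 over HE YSP (119 against 41.9 CPM). In HE YSP over HE YSA 2 were higher (Mki67 and Birc5) and 0 lower, beside 6.17% and 7.02% of all genes.

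**Figure D5:**
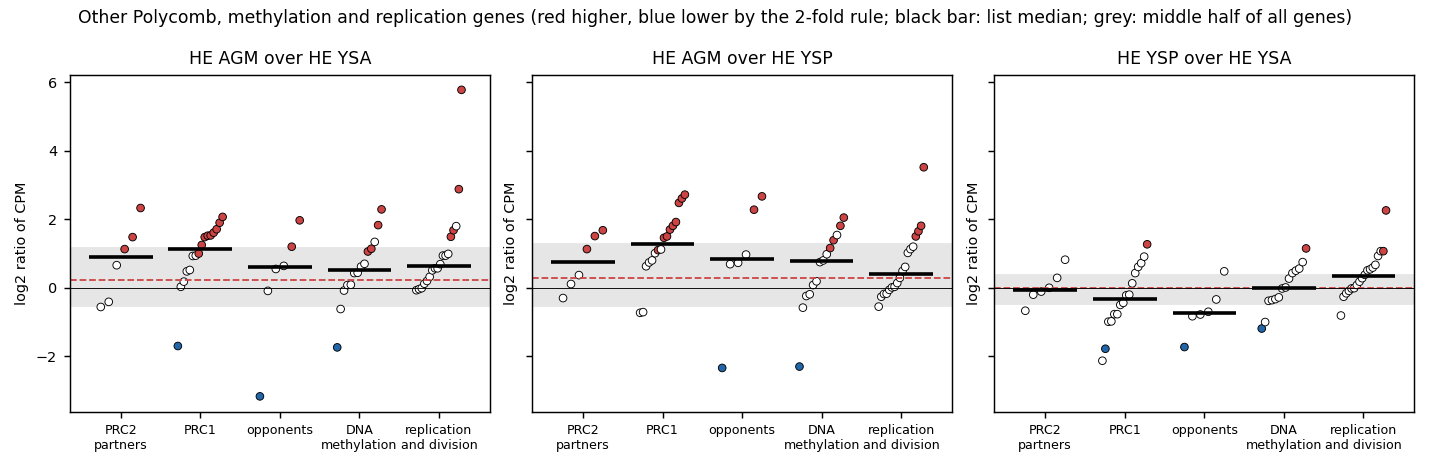
The log2 ratio of CPM is plotted for each measured gene of 5 lists in 3 comparisons, with red and blue points past the 2-fold rule, a black bar at the list's median and a grey band for the interquartile range of all genes. Most genes of complex 1 lie above 0 in both HE AGM comparisons, with medians of 1.13 and 1.29, and the median of each list lies between -0.74 and 0.33 in HE YSP over HE YSA. The grey band is not matched to the transcript lengths of the listed genes.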

How the data were processed

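Single cells had been sorted, turned into cDNA by Smart-seq2 and sequenced on a PromethION. The authors trimmed reads, removed chimeric ones, aligned the remaining ones with minimap2 (version 2.26 in the submitters' processing notes) to the GENCODE transcriptome and estimated transcript counts with NanoCount, which divides a read among the transcripts it aligns to. The deposited estimated counts carry no normalization and can be fractions. The deposited TPM values are the same estimates scaled to 1000000 in each cell, without a correction for length (largest difference 5.85e-09).

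Cells were grouped by the cluster in their labels. A limit of 1 scaled median absolute deviation under the median total left out 13 cells. Counts were summed over a gene's transcripts and a group's cells, and log2 ratios had 0.5 counts added to each side. Thinned shares give the expected share of cells with a count at the limit on totals. Intervals are exact Poisson, binomial or conditional binomial at 95%, on counts that need not be whole, and cover counting error only. A zero count allows up to 3 counts. No test was possible, since each population counts as 1 sample.

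The members, lists and rules were chosen with earlier results of these data known. Named were all 10 genes, their transcripts with at least 5% of the gene's counts, the 15 listed genes with the largest ratios among the 32 past the 2-fold rule, and for each gene of at least 500 counts the 3 genes most correlated with it. Jarid2, Epop, Rnf2, Usp16, Mbd2, Trim28, Tet1, Mcm4, Birc5 and Rrm1 were named after their values were seen. The comparison of stages and the values without a gene's leading transcript or highest cell, or with signs within runs taken without added counts, were also chosen after the data were seen. Alternatives covered the library-size limit, runs, totals, project, stage, clusters, added counts, small estimates, coding transcripts, TPM and size factors.

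Transcript sequences and positions came from GENCODE M21 on GRCm38, and promoters from RefSeq. The authors aligned to another release, so no coordinate is theirs. Marker lists for endothelium, arterial endothelium, blood, erythroid, megakaryocyte, macrophage, mesenchyme and YS endoderm cells were used to look for RNA of other cells. The rule was run on simulated counts that held counting error only, without variation between cells, embryos or projects. It therefore gives no error rate for these data. The work used Python 3.11.15, numpy 2.4.6, pandas 2.3.3, scipy 1.17.1, matplotlib 3.10.9, R 4.3.3 and DESeq2 1.42.0 (size factors only).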

Additional observations from a re-analysis of the deposited data

Results flagged for a closer look

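Reads were assigned to Dnmt3a-ps1, a pseudogene of Dnmt3a outside the 10 genes, at 2.76 CPM over all kept cells (27.1 estimated counts, 1.81 to 4.01 CPM), a level that a count of 0 would not allow. It was at 2.87 CPM in HE AGM, 4.46 CPM in HE YSA and 0.897 CPM in HE YSP.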

How the results depend on the processing

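Of 510 single-gene ratios under 17 alternatives, 398 stayed within the counting interval of the reported ratio, and 52 had the opposite sign. Of the 170 that belong to a gene past the 2-fold rule 1 turned sign, Ezh2 in HE AGM over HE YSA, at -0.04 without Dnmt3a-212 and Ezh2-213. The rule itself asks for the same sign in each run, so the 30 of these 170 from single runs could not turn. The other 51 turned values belong to ratios that were not past the rule, most often Suz12 in HE YSP over HE YSA (8 of 17), and 20 of them came in single runs. For HE AGM over HE YSA they include Eed at 1.31, Suz12 at -0.32 and Ezh1 at -0.65 in run 2 alone, Eed at 0.28 in late clusters and Dnmt3a at -0.73 without both transcripts. In a run alone a gene counts as higher or lower by 2-fold only, without the same sign in 3 runs. Counts and kept calls of single runs are therefore not comparable with those of the full rule. No share of all genes was computed under the 17 alternatives. For HE AGM over HE YSA, the number of genes higher was 7 in run 3 alone, the number lower was 1 in run 1 alone, run 2 alone, cells of 30000 to 60000 counts and early clusters, and the median ratio was 1.72 in run 3 alone, 1.68 with YS cells of E10.5 only and 0.42 without both transcripts. For HE AGM over HE YSP, 3 genes were higher with the limit on the log scale and with the main project only, 2 were lower in run 1 alone and in run 2 alone and 1 at 30000 to 60000 counts, and the median was 0.59 in run 2 alone, 0.74 at 30000 to 60000 counts and 0.77 without both transcripts. For HE YSP over HE YSA, 2 genes were higher in run 1 alone and in run 2 alone, 4 in run 3 alone, and 1 with E10.5 cells, late clusters or estimates of at least 1 count. In that comparison 3 were lower in run 1 alone, and 2 in run 2 alone, run 3 alone, the limit on the log scale, 30000 to 60000 counts, E10.5 cells, early clusters, late clusters and without each gene's highest cell, and the median was 0.31 in run 3 alone and 0.47 with E10.5 cells. With at least 50 counts per run, 1 gene had a differing isoform share in HE AGM against HE YSA. At 30000 to 60000 counts no HE AGM cell of run 3 remained. Over HE YSA, Dnmt1 and Dnmt3b kept the call in 17 of 17 alternatives, Uhrf1 in 16 and Ezh2 in 14. Over HE YSP, Dnmt3b kept it in 17, Ezh2 and Dnmt3a in 16, Dnmt1 in 11 and Tet3 in 10, and Dnmt3a in HE YSP over HE YSA in 15. With signs within runs taken without added counts, the counts of the 10 genes higher or lower in the 3 comparisons did not change. Without the minimum of 50 counts, 12.1% of all genes were higher and 17.2% lower in HE AGM over HE YSA, 13.3% and 17.3% over HE YSP, and 12.6% and 4.03% in HE YSP over HE YSA. The causes were not tested. No paired analysis was possible because no result comes from a test and no embryo links cells of different populations. Depth limits Tet2, Ezh1 and the isoform shares of Ezh2, Eed and Suz12 in the YS most.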

Other observations

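Over the 27 sums of counts by cluster and run, the genes whose log2(CPM + 1) was most correlated with each of the 5 genes of at least 500 counts were taken from 3261 genes of the same minimum. The sums share libraries, depth and projects, so the correlations are descriptions. Ezh2 was most like the splicing genes Snrpd3 (r = 0.859) and Srsf1 (0.831) and like Ppp1r14b (0.832). Dnmt1 was most like Senp3 (0.861), the cell-cycle regulator E2f4 (0.810) and Gm13986 (0.806), and Uhrf1 like Pgam1 (0.818), Ywhag (0.736) and the chromatin ATPase Atad2 (0.722). Dnmt3a was most like Ppp1cb (0.80), Dhx30 (0.786) and the cyclin Ccnd2 (0.752), and Dnmt3b like Hnrnpab (0.845), ENSMUSG00000130763 (0.835) and Arf6 (0.829).

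The 6 HE AGM cells of cDNA projects other than the main one had 122 CPM of Ezh2 and 125 CPM of Dnmt3b, and the 43 cells of the main project 129 and 118 CPM, with overlapping intervals. Dnmt3a (683, 603 to 769 CPM, against 559, 532 to 587 CPM), Dnmt1 (471 against 285 CPM) and Tet3 (73.8 against 27.9 CPM) were higher and Uhrf1 (109 against 198 CPM) lower in these cells. Of the 3 YS cells that go against the split of projects, a1 replicate 4 had 133 CPM of Dnmt3a and 53.0 CPM of Ezh2, a2 replicate 6 had 556 and 117 CPM, and a1 replicate 1 had 38.6 CPM of Dnmt3a and 0 of Ezh2. Dnmt3b was at 0, 87.8 and 0 CPM in them.

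In the progenitors p2 the level of Dnmt3a was 377 CPM at E10.5 (6 cells) and 179.8 CPM at E9.5 (9 cells), the same order as in HE, while Uhrf1 was at 131 and 136 CPM. Ezh2 was at 4.23 CPM at E10.5 (1 count) and 97.2 CPM at E9.5, and Dnmt3b at 55.1 and 175 CPM, so the level of each in p2 as a whole is a mean over unlike stages.

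Arterial markers summed to 814 CPM in HE AGM, 927 CPM in HE YSA and 138 CPM in HE YSP, blood markers to 680.0, 357 and 251 CPM, erythroid markers to 182, 34.6 and 14.4 CPM, megakaryocyte markers to 8.71, 9.97 and 44.9 CPM, and mesenchyme markers to 6.31, 18.9 and 10.2 CPM, with 172 CPM in c5, where Dlk1 was the 1 marker detected. The erythroid level of HE AGM was 287 CPM in c3 and 35.2 CPM in c4, with a median cell of 0 and a highest cell of 9408 CPM. The part of these markers' cell types in the levels of the 10 genes was not tested.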
